A study of Mus musculus with 20 samples.

Results

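Promoters that carried trimethylated lysine 4 of histone H3 (H3K4me3) in lineage-negative (Lin-) mouse bone marrow cells of 4 genotypes, but acetylated lysine 27 (H3K27ac) in none of them, are described here. A promoter was the span of 1000 bp on either side of a gene start, where the gene start is the 5′ end of the gene in GENCODE release M21 on GRCm38, the assembly also called mm10. Of 20807 autosomal protein-coding genes, 11675 had an H3K4me3 peak of all 4 genotypes in this 2001-bp window. No H3K27ac peak of any genotype overlapped the window of 2340 of these genes, or 20.0%, and these are called never acetylated promoters. The other genes with H3K4me3 were 1786 with H3K27ac in 1 to 3 genotypes (sometimes acetylated) and 7549 with H3K27ac in all 4 (always acetylated). The members were chosen by the H3K4me3 and H3K27ac peaks in the window, so the levels of these marks below are descriptions. H3K4me1, the gene families, and the DNA sequence were not used by the rule.

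Lin- cells are bone marrow cells depleted of cells that bear markers of mature blood lineages, and the labels give their purity as over 80%. WT mice were Ep300 fl/fl, and Ep300Δ/Δ mice were Mx1-Cre;Ep300 fl/fl. Tet2-/- mice were Ep300 fl/fl;Tet2-/-, and Ep300Δ/ΔTet2-/- mice were Mx1-Cre;Ep300 fl/fl;Tet2-/-. All 4 groups, the WT group included, thus carried the floxed Ep300 alleles, and the methods describe treatment of the mice with poly(I:C) as young adults. Mx1-Cre is induced by interferon and acts in many tissues besides blood, and Tet2-/- is a germline deletion. ChIP-Seq gave 1 peak list for each genotype and each of H3K4me3, H3K27ac, and H3K4me1, so the 12 lists hold no replicates and no test between genotypes was made. The 8 libraries for H3 and H3K27me3, the mark of Polycomb repression, were not analysed here. Sequencing depth is unknown, because peak lists do not hold it. A promoter without a peak had none called at the depth of its library, which does not show that the mark was absent. The 95% intervals beside the shares were computed by the exact Clopper-Pearson method from numbers of promoters and reflect counting error alone. Of the progenitor markers fixed as a check of the cell label, 26 of 30 had H3K4me3 of all 4 genotypes, against 11675 of all 20807 genes. Of these 26, 16 were always acetylated, near the 64.7% of all such promoters, so their acetylation gives no check of the label. Ep300 and Tet2 themselves had always acetylated promoters, so the lists give no check of the deletions.

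H3K4me3 is laid down by COMPASS-type methyltransferases at gene starts, above all at those rich in CpG dinucleotides, and it is found at active promoters and at promoters held ready but silent. H3K27ac is written by p300, the product of Ep300, and by its relative CBP, and marks active promoters and enhancers. H3K4me1 is the usual mark of enhancers. At an active promoter it typically flanks the gene start, where H3K4me3 takes its place. In many cell types the promoters of developmental regulators carry H3K4me3 with little acetylation, frequently together with H3K27me3.

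The promoter sequences of 6 never acetylated genes are shown because they differ widely in CpG content and in H3K4me1. Each runs 5′ to 3′ in the direction of the gene, from 250 bases before the gene start to the first 30 bases of the gene (280 bases of the GRCm38 sequence of RefSeq), with CpG dinucleotides in capitals. Irx5 encodes a homeodomain factor of the Iroquois family (chr8:92357375-92357654, plus strand), Dll1 a Notch ligand (chr17:15376843-15377122, minus strand), and Fat4 a giant atypical cadherin (chr3:38886690-38886969, plus strand). Acvr2a encodes a type II receptor for activins (chr2:48813859-48814138, plus strand), Ltc4s the synthase of leukotriene C4 (chr11:50238587-50238866, minus strand), and Zfp2 a zinc finger protein (chr11:50916136-50916415, minus strand).
Irx5: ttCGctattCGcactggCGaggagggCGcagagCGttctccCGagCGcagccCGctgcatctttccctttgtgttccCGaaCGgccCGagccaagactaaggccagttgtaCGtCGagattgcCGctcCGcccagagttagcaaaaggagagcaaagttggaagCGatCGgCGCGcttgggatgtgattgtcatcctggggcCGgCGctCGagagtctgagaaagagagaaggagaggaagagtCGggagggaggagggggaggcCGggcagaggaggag
Dll1: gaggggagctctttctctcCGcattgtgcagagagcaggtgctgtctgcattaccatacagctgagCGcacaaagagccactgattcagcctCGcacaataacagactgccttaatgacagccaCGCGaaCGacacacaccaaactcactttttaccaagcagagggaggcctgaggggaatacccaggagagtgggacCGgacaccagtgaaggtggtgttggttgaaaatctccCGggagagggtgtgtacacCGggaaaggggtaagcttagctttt
Fat4: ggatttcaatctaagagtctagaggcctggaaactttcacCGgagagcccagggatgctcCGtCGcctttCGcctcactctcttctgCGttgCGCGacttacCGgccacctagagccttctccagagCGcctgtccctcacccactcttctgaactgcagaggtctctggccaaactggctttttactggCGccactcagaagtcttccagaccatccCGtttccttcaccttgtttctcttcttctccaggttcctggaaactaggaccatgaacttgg
Acvr2a: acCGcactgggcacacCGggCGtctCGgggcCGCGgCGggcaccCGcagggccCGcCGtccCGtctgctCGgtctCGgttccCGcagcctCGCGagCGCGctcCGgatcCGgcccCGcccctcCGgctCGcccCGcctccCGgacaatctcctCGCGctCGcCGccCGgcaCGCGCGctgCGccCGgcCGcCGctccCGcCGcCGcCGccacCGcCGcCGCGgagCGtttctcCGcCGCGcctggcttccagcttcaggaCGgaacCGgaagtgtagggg
Ltc4s: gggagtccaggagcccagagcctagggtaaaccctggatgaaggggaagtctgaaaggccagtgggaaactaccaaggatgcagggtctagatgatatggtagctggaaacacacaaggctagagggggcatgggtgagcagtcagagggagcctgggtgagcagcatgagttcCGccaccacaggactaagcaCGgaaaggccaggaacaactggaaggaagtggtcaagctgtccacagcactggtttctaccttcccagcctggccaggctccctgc
Zfp2: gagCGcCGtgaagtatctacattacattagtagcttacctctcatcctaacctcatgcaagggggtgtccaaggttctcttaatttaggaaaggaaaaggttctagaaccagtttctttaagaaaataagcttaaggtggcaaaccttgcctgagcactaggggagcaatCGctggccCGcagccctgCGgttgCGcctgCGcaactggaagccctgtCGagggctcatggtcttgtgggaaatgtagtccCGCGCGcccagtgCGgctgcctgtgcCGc
The printed stretch held 51 CpG dinucleotides at Acvr2a, 24 at Irx5, 13 at Zfp2, 11 at Fat4, 9 at Dll1, and 2 at Ltc4s.

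Among these 6, H3K4me1 ran from none to the entire window. At Ltc4s, which had the fewest CpG dinucleotides of the 6, all 2001 bp of the window lay under H3K4me1 peaks in each of the 4 lists. Zfp2 had no H3K4me1 peak within 5000 bp of its start in any list, although its WT H3K4me3 peak had a fold enrichment of 72.0 over the H3 library. The homeobox gene Irx5 had 1854 bp of its window under H3K4me1 in WT, 1358 bp in Ep300Δ/Δ, 1011 bp in Tet2-/-, and 1130 bp in Ep300Δ/ΔTet2-/- cells. All numbers for 4 lists below follow this order of genotypes. H3K4me3 covered only 235, 438, 180, and 199 bp of the Irx5 window. The bases under H3K4me1 were 1008, 1206, 827, and 1117 bp at Dll1, and 1629, 2001, 1460, and 1519 bp at Fat4. At Irx5, Dll1, and Fat4 an H3K4me1 peak covered the start base itself in all 4 lists. Acvr2a, with the most CpG dinucleotides of the 6, had 635, 234, 375, and 372 bp, and no peak over its start in any list.

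Most never acetylated promoters carried H3K4me1, and they carried it closer to the gene start than acetylated promoters did. An H3K4me1 peak overlapped the window of 2030 of the 2340 members in WT cells (86.8%; interval, 85.3% to 88.1%), against 77.7% of all promoters with H3K4me3 of all 4 genotypes and 72.9% of the always acetylated ones (71.9% to 73.9%). The shares of members in the other lists were 89.3% in Ep300Δ/Δ, 83.3% in Tet2-/-, and 88.3% in Ep300Δ/ΔTet2-/- cells, against 79.9%, 74.6%, and 78.3% of all such promoters. Sometimes acetylated promoters did not stand apart from the members by this measure, with 86.3% in WT cells (84.6% to 87.9%). H3K4me1 in all 4 lists was found at 1689 members (72.2%; 70.3% to 74.0%), and at 54.2% of always acetylated promoters (53.1% to 55.4%). No list had H3K4me1 in the window of 86 members (3.68%), against 8.90% of all promoters with H3K4me3 of all 4 genotypes. Within 5000 bp, 64 members (2.74%; 2.11% to 3.48%) had none. This share was no lower than in the other classes, 2.02% of sometimes (1.42% to 2.78%) and 1.97% of always acetylated promoters (1.67% to 2.31%). The intervals overlapped.

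The classes differed more at the start base. H3K4me1 covered the gene start of 885 members in WT cells (37.8%; 35.9% to 39.8%), of 23.1% of sometimes acetylated promoters (21.2% to 25.2%), and of 8.17% of always acetylated promoters (7.57% to 8.81%), against 16.4% of all 11675. In Ep300Δ/Δ cells the share was 36.2% of members (34.2% to 38.1%) and 8.37% of always acetylated promoters, with 16.0% overall. Tet2-/- cells had 29.0% of members (27.1% to 30.9%) and 6.98% of always acetylated promoters, with 13.3% overall. The Ep300Δ/ΔTet2-/- list had 32.3% of members (30.4% to 34.2%) and 8.70% of always acetylated promoters, with 15.4% overall. The intervals of the 3 classes did not overlap in any of the 4 lists. The order of the genotypes changed with the peaks used. With peaks of a −log10 q of at least 5 alone the shares of members were 27.9%, 22.1%, 24.2%, and 23.3%. In H3K4me1 lists of equal length they were 34.5%, 36.2%, 27.3%, and 31.4%. At least 1 list had H3K4me1 over the start of 1219 members (52.1%), and all 4 lists had it at 394 (16.8%), against 12.9% and 3.93% of always acetylated promoters.

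Around the gene start, H3K4me1 reached its highest share of members close to the start. In WT cells 41.8% of members lay under an H3K4me1 peak at 200 bp upstream of the start and 53.4% at 400 bp downstream, with 37.8% at the start between them. Always acetylated promoters had their highest shares farther out, 28.9% at 600 bp upstream and 34.8% at 1100 bp downstream, and the start was the lowest point within 2000 bp. The upstream maximum of members stayed at 200 bp in all 4 lists, and the downstream maximum lay at 400, 400, 600, and 500 bp. At 5000 bp from the start the order turned over: 4.79% of members upstream and 6.41% downstream had H3K4me1 in WT cells, below the 8.40% and 11.5% of always acetylated promoters.

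**Figure D1:**
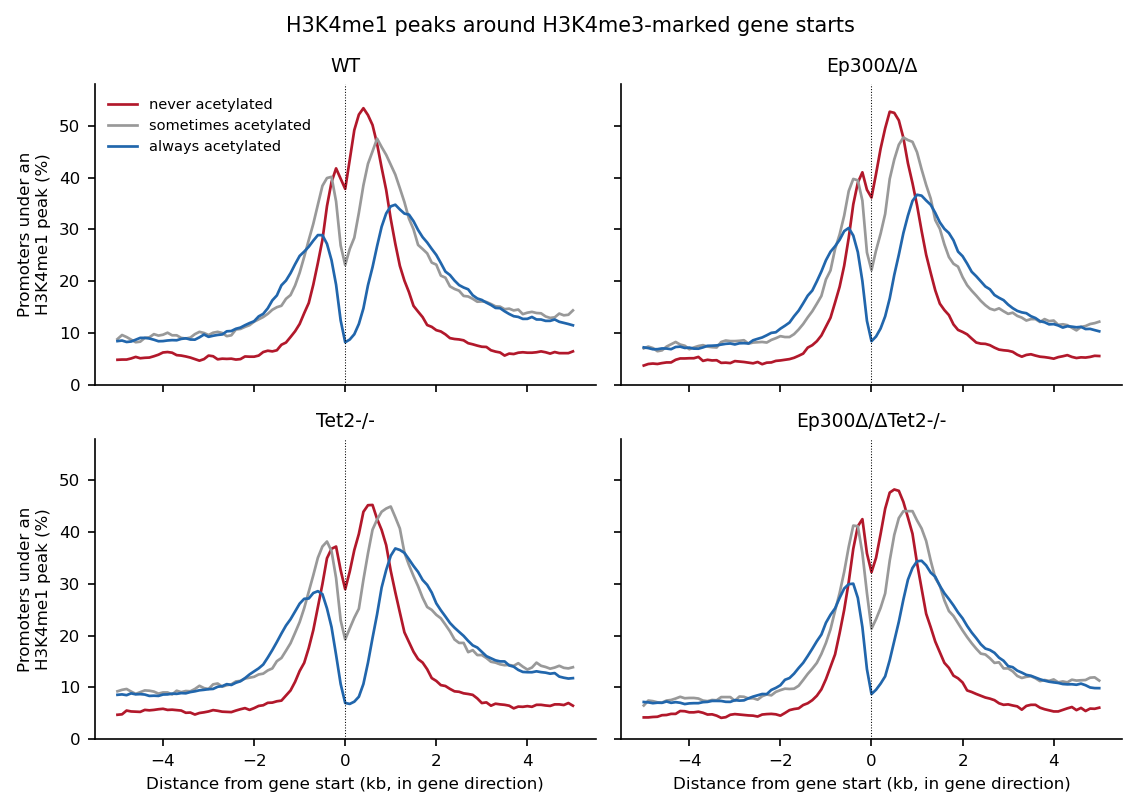
Share of promoters that lie under an H3K4me1 peak (percent, vertical axis) at each 100 bp from 5 kb upstream to 5 kb downstream of the gene start (horizontal axis), 1 panel per genotype, with 1 line each for the 2340 never, 1786 sometimes, and 7549 always acetylated promoters. In WT the red line of never acetylated promoters falls from 53.4% at 400 bp downstream to 37.8% at the start, and the blue line of always acetylated promoters falls from 34.8% at 1100 bp downstream to 8.17% there.

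H3K4me3 itself was weaker and narrower at the members, and it did not always reach the start. The median WT fold enrichment of the strongest H3K4me3 peak in the window was 14.7 at members and 53.1 at always acetylated promoters, which placed it at the 47.7th and the 83.9th percentile of the WT list. A median of 933.5 bp of the window lay under H3K4me3 at members and 1603 bp at always acetylated promoters. The start base was under an H3K4me3 peak at 70.0% of members and 94.3% of always acetylated promoters in WT cells. In all 4 lists it was covered at 1304 members, and in none at 431. These 431 members were included by a peak that entered the window without reaching the start. Of the 1637 WT members with H3K4me3 over the start, 769 also had H3K4me1 there (47.0%; 44.5% to 49.4%), against 8.16% of such always acetylated promoters (7.54% to 8.82%). Both marks together lay over the start of 739 members in Ep300Δ/Δ, 574 in Tet2-/-, and 641 in Ep300Δ/ΔTet2-/- cells. Separate peak lists do not show whether the 2 marks lay on the same chromosomes or in the same cells.

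Because H3K4me1 and H3K4me3 share a residue, the comparison was repeated among promoters with similar H3K4me3 coverage. With 501 to 1000 bp of the window under H3K4me3 in WT cells, H3K4me1 covered the start of 44.1% of 926 members (40.8% to 47.3%) and 16.8% of 309 always acetylated promoters (12.8% to 21.5%). With 1001 to 1500 bp the shares were 38.5% of 816 and 13.01% of 2599, and with 1501 to 2001 bp they were 27.8% of 212 and 4.61% of 4599. In the narrowest class, up to 500 bp, the WT order was the other way, 26.9% of 386 members (22.6% to 31.7%) and 35.7% of 42 always acetylated promoters (21.6% to 52.0%), and these intervals overlapped. In the Ep300Δ/Δ, Tet2-/-, and Ep300Δ/ΔTet2-/- lists this class had 31.6%, 22.1%, and 25.0% of members. The shares of always acetylated promoters were 30.4%, 31.6%, and 25.6%, so the order was not the same in all lists.

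The share also moved with CpG content, given as the CpG count observed in the window over the count expected from its C and G bases. At a ratio of 0.6 or more, H3K4me1 covered the WT start of 28.7% of 1062 members (26.0% to 31.5%) and of 3.36% of 4673 always acetylated promoters (2.86% to 3.92%). Between 0.3 and 0.6 the shares were 45.9% of 1104 and 12.1% of 2567. Under 0.3 the classes had overlapping intervals, 42.0% of 174 members (34.5% to 49.7%) and 48.5% of 309 always acetylated promoters (42.9% to 54.3%). At 0.6 or more, the shares in the Ep300Δ/Δ, Tet2-/-, and Ep300Δ/ΔTet2-/- lists were 27.4%, 18.2%, and 22.9% of members, and 3.66%, 2.31%, and 3.66% of always acetylated promoters. Between 0.3 and 0.6 they were 43.8%, 37.0%, and 39.7% of members, and under 0.3 they were 40.8%, 44.3%, and 42.5%. Anywhere in the WT window, H3K4me1 lay at 66.7% of members under 0.3, 87.05% between 0.3 and 0.6, and 89.7% at 0.6 or more. Always acetylated promoters had 89.0%, 80.4%, and 67.7%. With 1 library per genotype, differences between the lists were not tested.

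**Figure D2:**
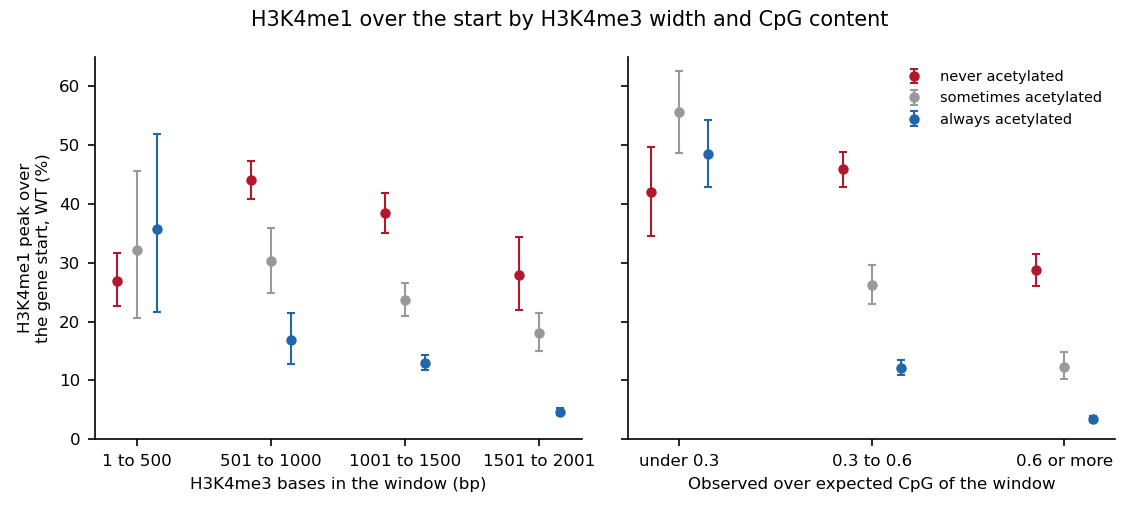
Share of promoters with an H3K4me1 peak over the gene start in WT cells (percent, vertical axis) by the number of H3K4me3 bases in the window (left) and by the observed over expected CpG ratio (right), with points for the 3 acetylation classes and bars for exact 95% intervals. Never acetylated promoters lie above always acetylated ones in all classes except the narrowest H3K4me3 (26.9% and 35.7%) and the lowest CpG ratio (42.0% and 48.5%).

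H3K4me1 was called in the window in some lists only, in a combination that followed neither Ep300 nor Tet2, at 447 members (19.1%), against 24.3% of all 11675 promoters. The call was present in the window in both genotypes with Tet2 and in neither without it at 35 members (1.50%), and the reverse held at 19 (0.812%). Among all promoters these patterns made up 1.94% and 1.14%. Both genotypes with Ep300 and neither without it had the call at 19 members (0.812%), and the reverse held at 45 (1.92%), against 1.13% and 2.14% overall. These 4 shares at members lay near the background, and nothing is read from them about the members. Pawr, which encodes a pro-apoptotic protein, had 746, 235, 0, and 0 bp of its window under H3K4me1, and the ciliary gene Cfap300 had 555, 298, 0, and 0 bp. Hace1, which encodes a ubiquitin ligase, showed the reverse with 0, 0, 34, and 453 bp. The zinc finger gene Zxdc had 0, 689, 0, and 675 bp, and the immunophilin gene Fkbp9 had 518, 0, 453, and 0 bp. At each of these genes a single library stands for each genotype.

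Lists of genes of development, cell signaling, and tissue structure held larger shares of members than all promoters did, and lists of genes that every cell uses held smaller ones. Gene lists were patterns of gene symbols, and each list is read against the 20.0% of H3K4me3 promoters that were never acetylated. Of the 112 developmental transcription factors with H3K4me3, 77 were members (68.8%; interval, 59.3% to 77.2%), 8 were sometimes and 27 always acetylated. Signaling genes gave 122 of 208 (58.7%; 51.6% to 65.4%), adhesion and matrix genes 75 of 104 (72.1%; 62.5% to 80.5%), and genes of excitable membranes 42 of 70 (60.0%; 47.6% to 71.5%). Only 5 of 302 housekeeping genes were members (1.66%; 0.540% to 3.82%). These shares leave out genes without H3K4me3 of all 4 genotypes. It marked 112 of 337 developmental factors, 208 of 432 signaling genes, 104 of 335 adhesion and matrix genes, and 70 of 288 excitable membrane genes. Of housekeeping genes it marked 302 of 326, and of all genes 11675 of 20807. Genes in no list gave 1833 of 10152 (18.1%), so 507 of the 2340 members belonged to at least 1 list. When H3K4me3 had to cover the start base in all 4 lists, the background fell to 14.0% (1304 of 9298), and the shares were 54.0% for developmental factors (34 of 63), 53.5% for signaling genes (69 of 129), 63.1% for adhesion and matrix genes (41 of 65), and 41.9% for excitable membranes (18 of 43).

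**Figure D3:**
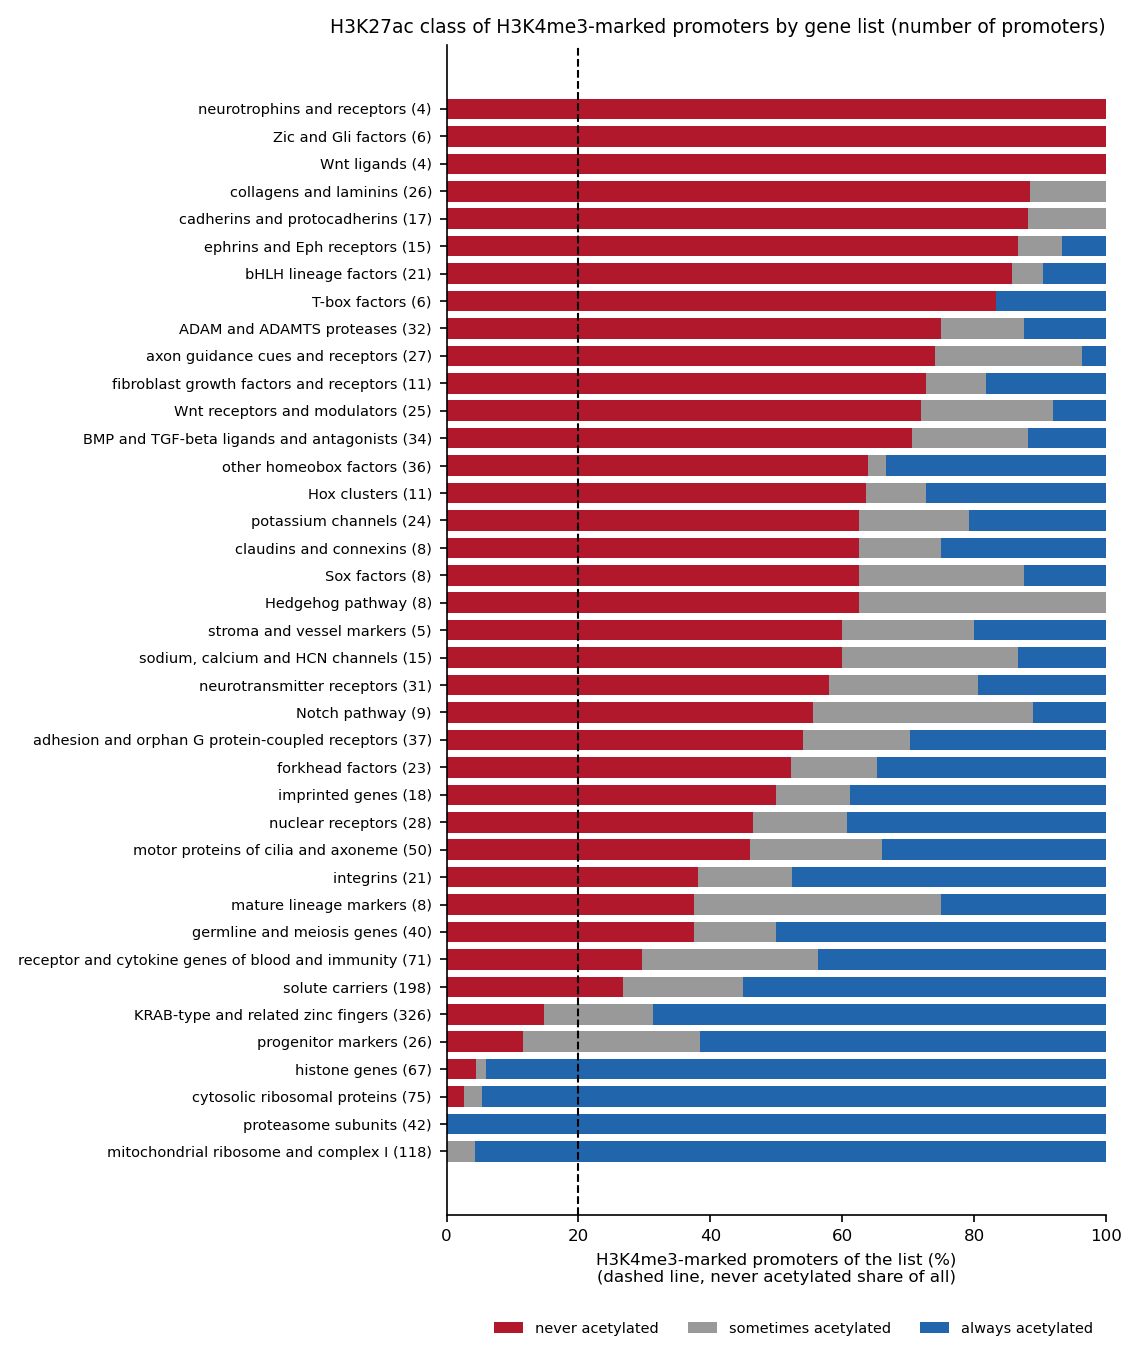
Share of the H3K4me3-marked promoters of each gene list (percent, horizontal axis; the number of promoters in parentheses) that were never, sometimes, or always acetylated, for lists with at least 4 such promoters. The dashed line marks the 20.0% of all such promoters, with lists of development, matrix, and signaling to its right and ribosomal, proteasome, and histone genes to its left.

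Among developmental transcription factors, the basic helix-loop-helix factors of cell lineages had 18 members of 21 with H3K4me3. They include the Notch effectors Hes1, Hes5, Hes7, Hey1, and Hey2, the proneural genes Neurog2 and Atoh1, and the inhibitors Id2 and Id3. Hes7, a gene of the segmentation clock, had 1722, 1275, 1886, and 1352 bp of its window under H3K4me1, over the start in all 4 lists. Hey1 had 1223, 1430, 801, and 1095 bp, and no H3K4me1 peak over its start in any list, so wide H3K4me1 flanked it. Neurog2, a proneural factor of neural progenitors, had 1582, 1695, 1357, and 1499 bp, over the start in all 4. Id2 had 578, 377, 307, and 871 bp, with H3K27ac at another transcript start of the gene and the nearest H3K27ac peak at 1061 bp.

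The Hox clusters, which pattern the body axis, had 7 members among 11 genes with H3K4me3, among them Hoxa6, Hoxa9, Hoxb5, Hoxb7, Hoxc6, and Hoxc9. H3K4me1 covered 1259, 1415, 954, and 1225 bp of the Hoxa6 window, over the start in the first 3 lists. Hoxb5 had 634, 978, 961, and 809 bp, and Hoxb7 had 243, 1255, 1303, and 551 bp. At Hoxc6 the bases were 395, 515, 410, and 0 bp, and at Hoxc9 they were 691, 790, 1404, and 809 bp. All 7 had H3K4me1 in the WT window and 2 of the 7 had it over the WT start, beside 86.8% and 37.8% of all members, and 7 genes are too few to set apart from these shares. Hoxa9, a factor of blood stem and progenitor cells, had 980, 861, 658, and 816 bp, with H3K27ac at another of its transcript starts and the nearest H3K27ac peak 1098 bp from the gene start. Hoxc6 and Hoxc9 lay far from H3K27ac, at 164777 and 186595 bp.

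The other homeobox genes had 23 members among 36 with H3K4me3, and the forkhead genes had 12 of 23. H3K4me1 lay over the start at 17, 13, 10, and 14 of the 23 homeobox members in the 4 lists, against 37.8%, 36.2%, 29.0%, and 32.3% of all members. Meis2, a cofactor of Hox proteins, had 624, 941, 738, and 1162 bp under H3K4me1, with the nearest H3K27ac peak at 483733 bp. Foxc1, a factor of mesenchyme and of bone marrow niche cells, had 597, 1044, 269, and 862 bp, over the start in the first 2 lists. All 6 genes of the Zic, Gli, and Glis families with H3K4me3 were members, among them Gli2, a transcriptional effector of Hedgehog signaling, with 1485, 1567, 760, and 1745 bp. T-box genes gave 5 of 6 and Sox genes 5 of 8. Sox8, of the group of Sox9 and Sox10, had 1704, 1640, 1372, and 1167 bp, over the start in all 4 lists. The heart and limb factor Tbx5 had 315, 163, 122, and 174 bp and no start covered. Only 5, 56, 90, and 122 bp of the Tbx5 window lay under H3K4me3, at the edge of the rule. Of the 77 developmental factors, 75 had H3K4me1 in the WT window, against 86.8% of all members. It lay over the start of 41, 37, 27, and 30 of the 77 in the 4 lists, and the counts of the last 2 lists lie near those shares of all members.

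**Figure D4:**
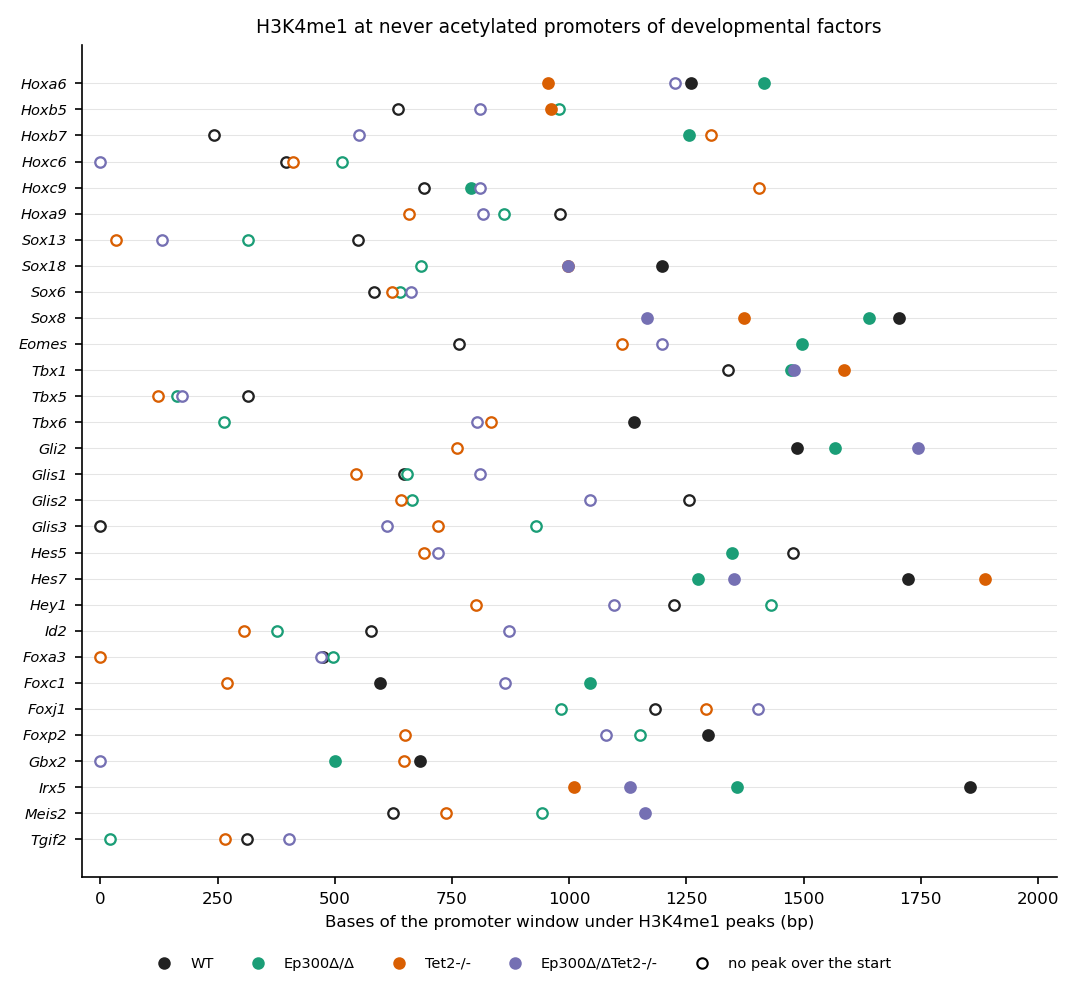
Bases of the 2001-bp promoter window under H3K4me1 peaks (bp, horizontal axis) at never acetylated developmental factors named by the rule, 1 row per gene and 1 point per genotype, filled where a peak covers the start base and open where none does. The points of the Tet2-/- and Ep300Δ/ΔTet2-/- lists at Sox18 (998 and 997 bp) overlap. Genes such as Hes7, Sox8, and Irx5 have filled points in all 4 lists, whereas Hey1, Sox6, and Tbx5 have open points alone. The points do not show H3K4me3, which covered 5 bp of the WT window at Tbx5 and 235 bp at Irx5 and at Sox6.

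Both ligands and receptors of signaling pathways were among the members. All 4 Wnt ligand genes with H3K4me3 (Wnt2b, Wnt5a, Wnt7a, and Wnt11) were members, and so were 18 of 25 Wnt receptors and modulators, among them Fzd4, Axin2, Rnf43, and Wif1. The receptor gene Fzd4 had 1205, 1631, 1025, and 1516 bp of its window under H3K4me1. Axin2, a target and inhibitor of the pathway, had no H3K4me1 in its window in any list. Rnf43, a ubiquitin ligase for Frizzled receptors, had 328, 700, 322, and 877 bp, with H3K27ac at another transcript start. BMP and TGF-β ligands, receptors, and antagonists gave 24 of 34 members. Their type I receptor gene Acvr1 had 391, 477, 362, and 513 bp, and the activin subunit gene Inhba had 470, 0, 284, and 663 bp.

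Ephrins and Eph receptors, which guide cells by contact, gave 13 of 15 members, and axon guidance cues and receptors gave 20 of 27. Epha7 had 295, 674, 0, and 0 bp under H3K4me1, and Epha2 had 1054, 714, 440, and 515 bp. Epha2 had H3K27ac at another transcript start, and its nearest H3K27ac peak lay at 1063 bp. Nrp2, a receptor for class 3 semaphorins, had 1002, 933, 882, and 868 bp. Fibroblast growth factors and their receptors gave 8 of 11 members, and Fgf3 had 1728, 950, 1181, and 1008 bp. Of 8 Hedgehog pathway genes with H3K4me3, 5 were members. The receptor gene Ptch1 had 1076, 966, 1189, and 959 bp, with H3K27ac at another transcript start. Notch pathway genes gave 5 of 9, and their ligand gene Jag1 had 510, 1246, 1109, and 979 bp, over the start in all lists but WT. Receptor and cytokine genes of blood and immunity were nearer the background, with 21 of 71 members (29.6%; 19.3% to 41.6%).

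Genes of the extracellular matrix and cadherins had the highest shares of members among lists with more than 6 H3K4me3 promoters. Collagens, laminins, and proteoglycans gave 23 of 26 members and none always acetylated, and cadherins gave 15 of 17, also with none always acetylated. The laminin gene Lamc1 had 986, 827, 1233, and 902 bp under H3K4me1, with no start covered, and the E-cadherin gene Cdh1 had 1232, 1075, 991, and 616 bp, over the start in the first 2 lists. Col4a1 and Col4a2, which encode the chains of basement membrane collagen and start next to each other, shared their peaks, with 1440, 1050, 1380, and 1422 bp at both. H3K4me1 lay in the WT window of 8 of the 15 cadherin members, against 86.8% of all members. Of the other 7, 6 were clustered protocadherins (Pcdhb1, Pcdhga5, Pcdhga10, Pcdhgb5, Pcdhgb6, and Pcdhgb7), whereas the clustered gene Pcdhgc3 had 1437, 1409, 1218, and 744 bp. Proteases of the ADAM, ADAMTS, and matrix metalloproteinase families and their inhibitors gave 24 of 32, whereas integrins, several of which act in blood cells, gave 8 of 21.

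Among genes of excitable cells with H3K4me3, members were 15 of 24 potassium channels, 9 of 15 sodium, calcium, and HCN channels, and 18 of 31 transmitter receptors. With the genes that lacked H3K4me3 in at least 1 list, these lists held 91, 65, and 132 genes. Cacnb1, a subunit of calcium channels, had 1053, 888, 891, and 1312 bp under H3K4me1, over the start in all 4 lists. The serotonin receptor gene Htr1b had 1312, 1176, 529, and 1419 bp, and the inward rectifier gene Kcnj10 had 497, 499, 917, and 488 bp with no start covered. Motor proteins and other genes of cilia gave 23 of 50, and germline genes 15 of 40. Imprinted genes gave 9 of 18, among them Peg10 and Sgce, which start back to back and shared 1 H3K4me3 peak per list. Mkrn3, a paternally expressed gene, had H3K4me1 in the Ep300Δ/ΔTet2-/- list alone, at 251 bp, and its nearest H3K27ac peak lay at 1396079 bp.

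Zinc finger genes of the KRAB type and their relatives, many of which silence transposable elements, had a smaller share than the developmental factors, with intervals that did not overlap. Of 326 with H3K4me3, 48 were members (14.7%; 11.1% to 19.04%), and 224 were always acetylated. The members had a median WT H3K4me3 fold enrichment of 23.4, against 9.24 for the developmental factors. H3K4me1 lay in the WT window of 35 of the 48, against 86.8% of all members, and over the WT start at 16 (33.3%), near the 37.8% of all members. Besides Zfp2, Zfp82 had 418, 1060, 0, and 986 bp, and Zfp786 had 483, 389, 365, and 360 bp, over the start in all 4 lists. No promoter of the proteasome (of 42) or of the mitochondrial ribosome and complex I (of 118) was a member. Histone genes gave 3 of 67, all outside the replication-dependent clusters (H1f0, H1fx, and H2afy2), and cytosolic ribosomal proteins gave 2 of 75, Rps2 and Rps10, both with H3K27ac at another transcript start of the gene.

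A few markers of other cells that Lin- marrow could hold were also among the members. Of 16 stroma and vessel markers, only 5 had H3K4me3 of all 4 genotypes, against 11675 of all 20807 genes. Of these 5, 3 were members (60.0%, 14.7% to 94.7%), against 20.0% of all promoters with H3K4me3. Kdr, the VEGF receptor of endothelial cells, had 1592, 1625, 1545, and 1616 bp under H3K4me1, over the start in all 4 lists. Tek, the angiopoietin receptor, had 0, 809, 933, and 899 bp, and Cxcl12, the niche chemokine, had 1138, 1337, 1362, and 1279 bp. Of 23 mature lineage markers only 8 had H3K4me3 of all 4 genotypes, and 3 of these 8 were members (37.5%, 8.52% to 75.5%). The globin gene Hbb-bt had 277, 0, 334, and 498 bp, Hba-a1 had 192, 194, 0, and 0 bp, and the macrophage gene Adgre1 had 0, 1149, 1247, and 1267 bp. The nearest H3K27ac peak lay just outside the window at both globin genes, at 1193 bp for Hbb-bt and 1003 bp for Hba-a1. Progenitor markers gave 3 of 26, among them Hoxa9 and Prtn3. Prtn3, a protease of neutrophil granules, had 953, 1066, 1127, and 643 bp with H3K27ac at another transcript start. The part of other cell types in these calls was not tested.

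The members with the strongest H3K4me3 show what a rule on annotated starts also takes in. By WT fold enrichment the first 10 were Sod2 (109.5), Wtap (94.2), Strip2 (91.6), Tmem184c (83.3), Add3 (79.5), Nle1 (76.8), Zfp2 (72.0), Rps2 and Rnf151 (71.1 each, from 1 shared peak), and Dmxl2 (69.4). At Wtap 96 bp of the WT window lay under H3K4me3, at Rps2 128 bp, and at Sod2 497 bp. Sod2, Wtap, Rps2, and Add3 had H3K27ac at another transcript start of the same gene. Strip2 had 1539 bp under H3K4me3 in the WT window, with the nearest H3K27ac peak at 68145 bp, and the nearest to Dmxl2 lay at 31771 bp. Over all members, 226 (9.66%; 8.49% to 10.9%) had H3K27ac at another transcript start, and 636 (27.2%; 25.4% to 29.0%) somewhere within the gene. The starts of 164 members lay within 2000 bp of the start of another member, so the windows of these promoters overlap and are not independent.

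The members lay at widely different distances from acetylation. The nearest H3K27ac peak of any genotype lay at a median of 28002 bp, at 1001 to 2000 bp for 103 members (4.40%), and beyond 50000 bp for 761 (32.5%). H3K4me1 covered the WT start of 45.3% of the 265 members with acetylation within 5000 bp (39.2% to 51.5%), and of 28.9% of the 761 beyond 50000 bp (25.7% to 32.3%). These shares were 36.2% (30.4% to 42.3%) and 20.2% (17.4% to 23.3%) in Tet2-/- cells. The intervals overlapped in Ep300Δ/Δ cells, with 38.1% (32.2% to 44.3%) and 29.2% (26.0% to 32.5%), and in Ep300Δ/ΔTet2-/- cells, with 33.2% (27.6% to 39.2%) and 26.3% (23.2% to 29.6%). Just inside the rule were Hba-a1, Snx24, and Wtap, with H3K27ac at 1003, 1006, and 1015 bp. Just outside were Rbm17, Ptprcap, and Clcn4, with H3K27ac at 979, 994, and 998 bp. Of promoters that missed the rule by 1 genotype, 209 had H3K27ac in WT cells alone, 86 in Ep300Δ/Δ, 131 in Tet2-/-, and 73 in Ep300Δ/ΔTet2-/- cells. Without H3K27ac in any list, 116 promoters had H3K4me3 in all lists but WT, 39 in all but Ep300Δ/Δ, 48 in all but Tet2-/-, and 50 in all but Ep300Δ/ΔTet2-/-.

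In DNA sequence, members were less CpG-rich than always acetylated promoters and close to sometimes acetylated ones. The median observed over expected CpG ratio of the window was 0.577 at members (quartiles, 0.454 and 0.694), 0.586 at sometimes acetylated promoters (0.442 and 0.708), 0.649 at always acetylated promoters (0.538 and 0.753), and 0.486 over all autosomal protein-coding genes. The median GC content was 56.0% at members, 54.1% at sometimes, and 53.4% at always acetylated promoters. A ratio of 0.6 or more was found at 45.4% of members (43.4% to 47.4%), at 47.2% of sometimes acetylated promoters (44.9% to 49.6%), and at 61.9% of always acetylated promoters (60.8% to 63.0%). A ratio under 0.3 was found at 7.44%, 11.8%, and 4.09% of them. Developmental factors among the members had a median ratio of 0.687, and the receptor and cytokine genes of blood and immunity 0.383. The median gene length was 28701 bp for members, 24213 bp for sometimes, and 22255 bp for always acetylated genes. Another annotated start of any gene lay within 2000 bp of 22.5% of members (20.8% to 24.2%), 29.1% of sometimes acetylated promoters (26.96% to 31.2%), and 43.7% of always acetylated promoters (42.5% to 44.8%).

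Short motifs were searched in the promoter from 250 bases before to 50 bases from the gene start, on both strands except for the TATA box, which was searched on the strand of the gene. The motif of ETS factors, CCGGAAG, was in 5.77% of members and 22.5% of always acetylated promoters, with 13.3% of sometimes acetylated ones between them. It was in 11.0% of all 20807 autosomal protein-coding genes, with or without H3K4me3. In this paragraph, all stands for these genes. The core of the NRF1 motif, GCATGCGC, was in 2.78% of members and 6.49% of always acetylated promoters, and in 3.45% of all. The CRE motif TGACGTCA had 2.31% and 4.25%, with 2.43% of all, and the E-box CACGTG had 8.89% and 11.3%, with 7.82% of all. The CCAAT box (CCAAT) was in 32.6% of members, 40.0% of always acetylated promoters, and 38.6% of all. The GC box GGGCGG did not separate the classes, at 63.9% and 64.0%, with 43.7% of all genes. The AP-1 motif TGACTCA was in 3.89% and 2.77%, with 4.52% of all. RUNX (TGTGGTT) was in 3.72% and 3.78%, with 5.20% of all, and the TATA box TATAAA in 5.21% and 3.92%, with 8.70% of all. None of these motifs contains another, and a match is a description of letters, not a bound site. The ETS, NRF1, CRE, E-box, and GC box motifs each hold a CpG, and the CpG ratio also differed between the classes.

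**Figure D5:**
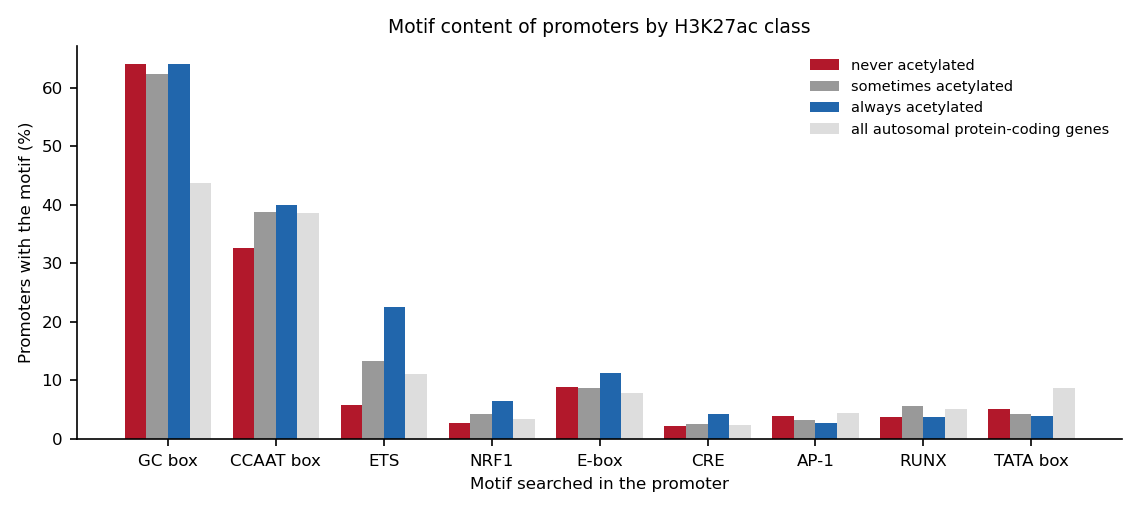
Share of promoters that hold each motif (percent, vertical axis) for the 9 motifs searched (horizontal axis), with bars for never, sometimes, and always acetylated promoters and for all autosomal protein-coding genes. The ETS motif shows the widest ratio among the more frequent motifs, 5.77% at never and 22.5% at always acetylated promoters, while the GC box bars are level at 63.9% and 64.0%.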

How the data were processed

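ChIP-Seq of Lin- bone marrow cells gave 12 deposited peak lists, 1 library for each of 4 genotypes and 3 marks. The authors used Cutadapt 1.15 for trimming, BWA 0.7.13 for alignment to mm10, and Picard for removal of duplicates. They filtered the reads by mapping quality. They called narrow peaks with MACS2 2.1.1.20160309 against the H3 library, keeping peaks found in pseudo-replicates. The deposited lists give the authors' fold enrichment (a ratio over H3) and −log10 of the q-value per peak. The methods state a q under 0.05, yet each list holds some peaks over it, from 36 of 26289 for WT H3K4me3 to 4372 of 90738 for Ep300Δ/Δ H3K4me1. Labels call the libraries single-end and the methods paired-end. Peak calling turns a graded signal into presence or absence, and longer lists mark more promoters. Fold enrichments were ranked within 1 list only.

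Windows overlapped a peak by at least 1 bp. Gene starts came from GENCODE M21 (Ensembl 96), sequence from the RefSeq copy of GRCm38. Shares carry exact Clopper-Pearson 95% intervals (scipy 1.17.1). The overlap code was tested on simulated data and equaled bedtools 2.31.1 in 12000 of 12000 windows, and recovered 2000 of 2000 simulated promoter classes. Members and the 40 gene lists were chosen with earlier results of these data known. Genes were named by rule: the 10 with the strongest WT H3K4me3, up to 4 per list with at least 5 members, and the 6 with the most WT H3K4me1. Also named were 6 without H3K4me1 within 5000 bp and up to 6 per genotype pattern, both taken by the strongest WT H3K4me3. All members among the Hox genes and cell type markers, and genes at the edge of the rule, completed the names. Neurog2, Col4a1, Col4a2, the Wnt ligands, the protocadherins, and others listed without values were named after their values were seen. The 6 printed promoters were chosen likewise. Besides the main rule, 14 alternative settings and 2 chosen after seeing the data were run. Columns of peak scores were not used. Values of a few genes that the rule names are not reported here.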

Additional observations from a re-analysis of the deposited data

Results flagged for a closer look

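Between genotypes, 1 pair of differences at never acetylated promoters ran in opposite directions. The share with H3K4me1 over the gene start changed by -1.67 percentage points from WT to Ep300Δ/Δ cells, and by 3.29 points from Tet2-/- to Ep300Δ/ΔTet2-/- cells. Each value rests on 1 library per genotype, and the difference between them was not tested. In H3K4me1 lists of equal length the shares were 34.5% in WT and 36.2% in Ep300Δ/Δ cells, so that the first difference turned positive, against 27.3% in Tet2-/- and 31.4% in Ep300Δ/ΔTet2-/- cells. With peaks of a −log10 q of at least 5 the shares were 27.9% and 22.1%, and 24.2% and 23.3%, so that both differences were negative. The cause was not tested.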

How the results depend on the processing

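The number of never acetylated promoters stayed between 1814 and 2672 under 14 other settings of the window, thresholds, overlap, and lists, and was 2355 when peaks with a q over 0.05 were left out, a setting chosen after seeing the data. It fell to 1304 when H3K4me3 had to cover the start base in all 4 lists, also chosen after seeing the data. In WT cells the share of members with H3K4me1 in the window was 81.8% with a window of 500 bp, 65.3% with H3K4me1 peaks of a −log10 q of at least 5, and 79.9% with H3K4me1 lists of equal length. The share with H3K4me1 over the start was 27.9% with the stricter H3K4me1 peaks, 34.5% with lists of equal length, and 49.5% with H3K4me3 over the start. At always acetylated promoters it was 7.23% and 8.88% with windows of 500 and 2000 bp, 9.18% with acetylation read at any transcript start, and 7.26% with stricter H3K27ac peaks. It was 6.46% with stricter H3K4me1 peaks, 9.60% with acetylation read within 5000 bp, and 9.92% without starts near another gene. Developmental transcription factors made up 3.29% of members, and 2.48% without starts near another gene. Members kept the higher share over the start under all 16 settings run. Leaving out the lists of each genotype in turn gave 2463 to 2666 members. No paired analysis was possible because each genotype and mark has 1 library. Depth is unknown, so promoters with weak signal may count as unmarked.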

Other observations

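The 6 members with the most H3K4me1 in the WT window were Ltc4s, Lat, Ggn, Mroh6, Esrp2, and Cyp26a1, each with all 2001 bp covered. Lat encodes an adaptor of T cell receptor signaling, and it had 2001, 2001, 2001, and 1878 bp under H3K4me1 in the 4 lists, a CpG ratio of 0.272, and its nearest H3K27ac peak at 7253 bp. Esrp2, a splicing regulator of epithelia, had 2001, 2001, 1784, and 1856 bp and a CpG ratio of 0.686. Cyp26a1, which degrades retinoic acid, had 2001, 2001, 1649, and 1875 bp, with a WT H3K4me3 fold enrichment of 3.83 and the nearest H3K27ac peak at 95319 bp.

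At the other end, Zfp2, Rbm11, Ei24, Nubpl, Gm14326, and Ankrd29 had the strongest WT H3K4me3 among the 64 members without H3K4me1 within 5000 bp in any list. Rbm11, an RNA-binding protein gene, had H3K4me3 fold enrichments of 51.3, 63.8, 35.2, and 53.1, which are not comparable between lists as amounts. Nubpl, a gene for complex I assembly, had 44.5 in WT cells and its nearest H3K27ac peak at 91264 bp.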
